A study of Cuscuta campestris with 9 samples.

Results

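U2 is the small nuclear RNA (snRNA) of the spliceosome that pairs with the branch site of an intron. The deposited table lists 16 copies of its gene in Cuscuta campestris, a parasitic dodder, among 2535 intervals in all. The copies were selected by their category and name in that table, with no use of counts, and were told apart by scaffold, start, end and strand. Of the 16 copies, 3 had counts and 13 had 0 counts in every library. The copies on scaffolds 79 and 29 together held 99.3% of all 7408 U2 counts.

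The RNA came from wild-type plants of strain "Dotti". Per the labels' protocols, shoot tips of plants grown on beet were cut, exposed to far-red light and pressed onto 3% agar for 4 days, and the regions with haustoria, the organs of host invasion, were dissected without any host present. Total RNA of 3 RNA samples was each divided over 3 treatments, so that decapping enzyme (Dcp) was used on one portion, the pyrophosphohydrolase RppH on another and nothing on the last (untreated). This gave 9 libraries with 3 per treatment. Whether the 3 RNA samples were grown apart is not stated in the labels, and p-values measure the spread between these libraries, which may be technical. The table lists short RNAs only, with no marker gene of haustorial tissue, so the tissue label could not be checked. Levels are those of whole dissected regions, in which fewer cells of a type and less RNA per cell cannot be told apart.

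In plants as in animals, U2 is transcribed by RNA polymerase II and receives a cap at its 5′ end, which is later methylated further to a trimethylguanosine cap. It joins proteins to form the U2 particle, binds the branch site next to the 3′ splice site, and then pairs with U6 in the active spliceosome. Plant genomes carry U2 as a family of many genes, some of which are not transcribed. The library ligation needs a 5′ monophosphate. Dcp removes the cap and leaves such an end, and RppH does so for triphosphate ends and can also act on caps, so a capped RNA is counted mainly after either enzyme.

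Library totals ran from 24974484 to 46034864, and 1 count was worth 0.0217 to 0.0400 TPM (transcripts relative to the library total, not scaled by length). The untreated libraries held 630 to 1011 counts in all listed intervals, the Dcp libraries 10843 to 18369 and the RppH libraries 13578 to 34529. Nothing shows that counts stand for independent molecules, so the intervals and limits given here cover counting error only. The rule by which reads matching more than 1 copy were placed is not given here, and the values of single U2 copies are uncertain to that extent. The sum over all U2 copies is less affected.

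The U2 sum was near 0 without enzyme and rose after each of them. It was 0.242, 0 and 0.0757 TPM in untreated replicates 1 to 3, from 10, 0 and 2 counts. After Dcp it was 51.4, 42.9 and 30.5 TPM, and after RppH it was 40.2, 33.9 and 44.6 TPM. Every treated library lay above every untreated one, while the Dcp and RppH libraries overlapped. The group means were 0.106 ± 0.124 TPM without enzyme, 41.6 ± 10.5 TPM with Dcp and 39.6 ± 5.39 TPM with RppH (SD, n = 3 each). On the log2(TPM + 1) scale the difference from untreated was 5.24 for Dcp and 5.19 for RppH, in the same direction in 3 of 3 RNA samples. Each had an exact two-sided permutation p of 0.1, the smallest that 3 against 3 libraries allow. The ratio of pooled rates, which sum the counts and the totals of a group, was 393 for Dcp over untreated (95% counting interval 225 to 761) and 380 for RppH over untreated (217 to 736). Both enzymes were set against the same untreated libraries, whose 12 U2 counts limit both ratios, and 10 of these came from replicate 1. Without that library, a choice made after seeing the data, the ratios rested on 2 untreated counts and were 1502 (415 to 12403) and 1452 (402 to 11993).

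The most counted copy lay on scaffold 79 (315044 to 315239, plus strand, 196 nt) and held 4387 counts, or 59.2% of all U2 counts. Its level was 0.242, 0 and 0.0378 TPM in untreated replicates 1 to 3, then 30.0, 24.9 and 17.1 TPM after Dcp and 25.5, 15.8 and 30.1 TPM after RppH. No treated library overlapped the untreated ones, and among treated libraries RppH replicate 2 was lowest and RppH replicate 3 highest. The log2 fold change was 7.91 for Dcp against untreated (SE 0.891, edgeR quasi-likelihood adjusted p = 8.97e-14) and 7.90 for RppH against untreated (SE 0.891, edgeR adjusted p = 9.56e-14), each higher in 3 of 3 RNA samples. Of the 11 untreated counts, 10 came from replicate 1. Without that library the log2 fold changes were 10.34 and 10.33.

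The copy on scaffold 29 (734845 to 735040, plus strand) had the same length of 196 nt and held 2972 counts, or 40.1%. It had 1 count in untreated replicate 3, worth 0.0378 TPM, and 0 in the other untreated libraries. After Dcp it stood at 21.2, 17.7 and 13.2 TPM in replicates 1 to 3, and after RppH at 14.4, 18.0 and 14.3 TPM. The untreated and treated libraries did not overlap, and the RppH values lay within the range of the Dcp values. The ratio of pooled rates was 1964 for Dcp over untreated (95% counting interval 352 to 77601) and 1755 for RppH over untreated (314 to 69353). The width of these intervals comes from the single untreated count. The rises passed with an edgeR adjusted p of 5.54e-15 for Dcp and 1.12e-14 for RppH (n = 3 per group, higher in 3 of 3 RNA samples). The copy reached the minimum of 10 counts for testing only through its treated libraries, which favours a call.

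The third copy with counts lay on scaffold 23 (1038593 to 1038787, plus strand, 195 nt) and was far less counted, with 49 counts or 0.661% of the U2 total. It had 0 counts in all untreated libraries, 8, 17 and 5 counts after Dcp, and 9, 2 and 8 counts after RppH. These correspond to 0.312, 0.416 and 0.172 TPM after Dcp and to 0.328, 0.0801 and 0.240 TPM after RppH. With 3 counts put in for the untreated group, the pooled rate was 11.9-fold higher after Dcp and 8.40-fold higher after RppH. These values take the treated counts as exact and are therefore not lower limits of a rise. The edgeR adjusted p was 0.00253 for Dcp and 0.00136 for RppH, with higher values in 3 of 3 RNA samples. With the RNA sample as a block, the edgeR adjusted p was 0.0323 and 0.0143. The Dcp call was lost when RNA sample 1 was left out (edgeR adjusted p = 0.206) and when RNA sample 2 was (edgeR adjusted p = 0.0988). This copy reached the minimum of 10 counts for testing only through its treated libraries, which favours a call. Its p-values are therefore no support for a rise.

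**Figure D1:**
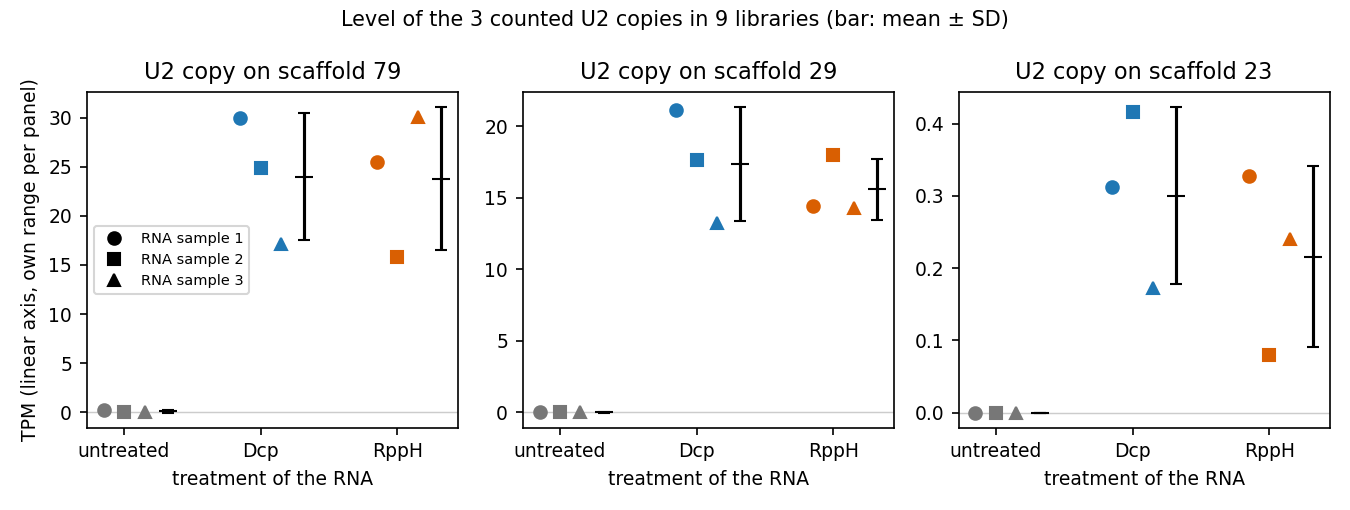
Level of each counted U2 copy in TPM (linear axis from 0, own range per panel) in untreated, Dcp and RppH libraries; symbols mark the RNA sample and bars give the mean ± SD over 3 libraries. All untreated values lie at or near 0, and the Dcp and RppH values of each copy overlap.

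All 3 copies with counts were called higher after each enzyme. Across the whole table, 13.6% of 354 tested loci were called higher after Dcp and 91.2% after RppH, and 0 were called lower in either comparison (0 at an unadjusted p under 0.05, and 0 by DESeq2 or limma; edgeR, Benjamini-Hochberg adjusted p under 0.05, loci with 10 or more counts summed over the libraries, n = 3 per group). Those background counts varied with the fit. For Dcp, 30 loci were called higher with the RNA sample as a block in place of 48, 6 with RNA sample 1 left out, 22 with RNA sample 2 left out, 30 with median of ratios and 10 with limma. For RppH, 203 were called with the block in place of 323, 196 with RNA sample 1 left out and 211 with RNA sample 3 left out. The U2 copies on scaffolds 29 and 23 reached the count minimum only through their treated libraries, which favours a call, and the number called is therefore no support for a response of the family. The other snRNA types, tested in the same fit, gave 7 of 9 U1 copies, 5 of 5 U4 copies and 1 of 1 U5 copy called higher after Dcp, and 9, 5 and 1 after RppH. The median log2 fold change of the 3 U2 copies was 7.91 for Dcp and 7.90 for RppH, beside 1.98 and 5.68 over all 354 loci. The U1 medians were 8.02 and 8.06, the U4 medians 6.46 and 5.07, and the single U5 copy tested had 6.58 and 7.02. A high value after Dcp was thus not particular to U2.

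The direct comparison of the enzymes asked whether U2 was recovered differently by Dcp and RppH. No U2 copy was called among the 3 tested (0 by DESeq2 as well, and 0 with an unadjusted edgeR p under 0.05), while 61% of the 354 loci were called higher after RppH. That background of 216 loci fell to 64 with the RNA sample as a block, to 113 with DESeq2, and to 0, 124 and 57 when RNA samples 1, 2 and 3 were left out in turn. Without single libraries it fell to 112 (Dcp replicate 2), 96 (Dcp replicate 3), 140 (RppH replicate 1) and 94 (RppH replicate 3), and no U2 copy was called with the block, with DESeq2 or in any of these leave-outs. The log2 difference, RppH minus Dcp, was −0.01 for the copy on scaffold 79 (95% interval −1.26 to 1.24, edgeR adjusted p = 0.987). It was −0.16 for the copy on scaffold 29 (95% interval −1.45 to 1.14, edgeR adjusted p = 0.839) and −0.47 for the copy on scaffold 23 (95% interval −2.54 to 1.60, edgeR adjusted p = 0.692). These intervals still hold differences of more than a doubling in either direction, so equal recovery is not shown. For the U2 sum the difference on the log2(TPM + 1) scale was −0.05 (exact two-sided permutation p = 0.9, higher after RppH in 1 of 3 RNA samples).

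These differences are relative to the library total. The main other scalings take their reference from among the tested loci. For median of ratios these were only the 22 loci with counts in every library. The scalings moved RppH against Dcp by 2.24 (TMM) and 2.42 (median of ratios) on the log2 scale. With TMM, 10 loci were called higher and 12 lower in place of 216 and 0, and with median of ratios 5 higher and 12 lower. For RppH against untreated, 66 loci were called higher and 8 lower with TMM and 43 and 9 with median of ratios, in place of 323 and 0. The copies on scaffolds 79 and 29 were then lower after RppH than after Dcp, by log2 differences of −2.27 and −2.31 with TMM (edgeR adjusted p = 4.12e-05 and 7.20e-05) and of −2.45 and −2.45 with median of ratios (edgeR adjusted p = 4.31e-07 and 2.39e-06). The rises of both copies over untreated kept their direction and passed under both scalings, but the log2 fold changes were smaller. After RppH they went from 7.90 to 4.76 (TMM) and 4.44 (median of ratios) for scaffold 79 and from 10.23 to 7.50 and 7.22 for scaffold 29, and after Dcp from 7.91 to 7.03 and 6.89 and from 10.38 to 9.81 and 9.67. The rise of the copy on scaffold 23 after RppH did not pass under either (edgeR adjusted p = 0.185 and 0.252).

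As a share of the counts in all listed intervals, U2 made up 9.54%, 9.54% and 8.16% in the Dcp libraries and 5.26%, 6.23% and 4.31% in the RppH libraries. The groups did not overlap. The same held for the shares of U1 and U4, so this was not particular to U2, while the U5 shares overlapped. Of 13840, 18369 and 10843 listed counts in Dcp replicates 1 to 3, U1 held 10461, 14269 and 8823 and U4 131, 146 and 93. Of 20981, 13578 and 34529 in RppH replicates 1 to 3, U1 held 10990, 6839 and 18481 and U4 132, 74 and 144. Each share depends on every other listed RNA. The U2 sum per library total did overlap between the enzymes, as given above.

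The balance between the abundant copies lay in a narrow range in the Dcp libraries and a wider one in the RppH libraries, where RppH replicate 2 stood apart. Whether the spread differs between the treatments was not tested. The copy on scaffold 79 took 58.3%, 57.9% and 56.0% of U2 counts in Dcp replicates 1 to 3, from 1320, 1753 and 885 U2 counts. After RppH it took 63.3%, 46.6% and 67.4%, from 1104, 846 and 1488 U2 counts. The Wilson 95% interval of RppH replicate 2 (43.2% to 49.9%) overlapped none of the intervals of the other 5 treated libraries, whose lowest bound was 52.8%. The interval of RppH replicate 3 (65.0% to 69.7%) also overlapped none of the Dcp intervals, whose highest bound was 60.9%. Among the Dcp intervals, that of RppH replicate 1 (60.4% to 66.1%) overlapped only the one of Dcp replicate 1. The copy on scaffold 29 was the more abundant in RppH replicate 2, at 53.2%, with a ratio of scaffold 79 to scaffold 29 counts of 0.876. In the other RppH libraries this ratio was 1.77 and 2.10, and in the Dcp libraries it was 1.42, 1.41 and 1.29.

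In RppH replicate 2, both U2 and U1 were at their lowest among the RppH libraries, at 33.9 and 274 TPM. The copy on scaffold 29 went the other way and had its highest RppH value there, at 18.0 TPM. A U1 copy that lies downstream of it on the same scaffold (739741 to 739898) had its lowest treated value in that library, at 5.61 TPM, against 14.9 and 16.2 TPM in RppH replicates 1 and 3.

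Over all libraries the mean share of the copy on scaffold 79 was 57.4% ± 1.19 after Dcp and 59.1% ± 11.0 after RppH (SD, n = 3 each). The difference of 1.70 percentage points was smaller than the spread of the RppH libraries (exact two-sided permutation p = 0.9). It was 8.21 points without RNA sample 2, with RppH higher in both remaining samples, and −3.14 points without RNA sample 3. With 2 against 2 libraries an exact test cannot go below 0.333. The copy on scaffold 29 had shares of 41.9% ± 1.30 and 40.4% ± 11.3, and that on scaffold 23 of 0.714% ± 0.223 and 0.530% ± 0.289.

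**Figure D2:**
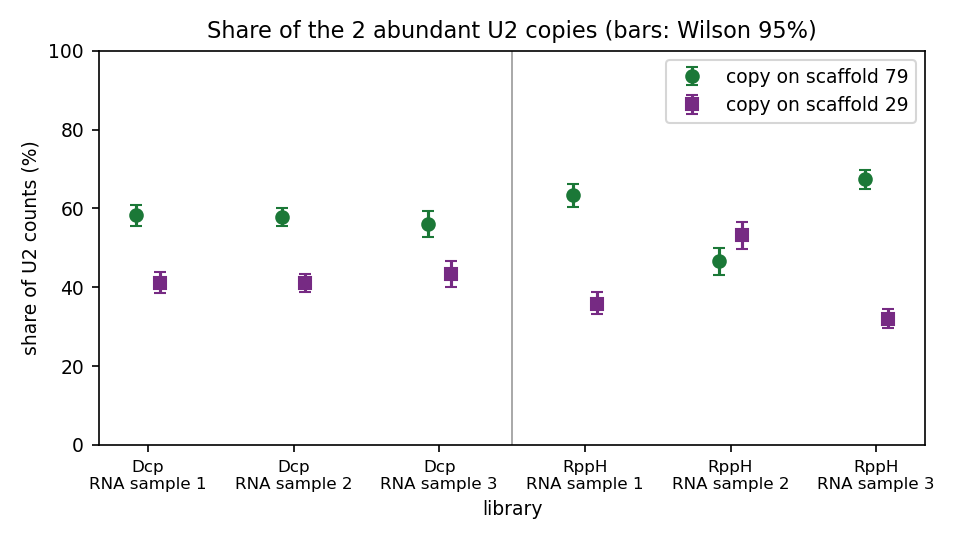
Share of all U2 counts (percent) taken by the copies on scaffolds 79 and 29 in each treated library, with Wilson 95% intervals for counting error. The order is reversed in RppH replicate 2, where scaffold 79 holds 46.6% and scaffold 29 holds 53.2%.

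The 13 copies with 0 counts lay on scaffolds 3, 23, 24, 81, 108, 287 and 346. In the 6 treated libraries together, with a summed total of 181295937, a count of 0 allows a level of up to 0.0165 TPM for such a copy (3 counts of the total). That limit is far below the levels of the abundant copies and also below the 0.300 ± 0.122 TPM (SD, n = 3) of the scaffold 23 copy after Dcp. The limit holds for counted full-length transcripts of the listed interval. RNA from such a gene with other ends, or reads placed on another copy, would not appear in it.

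Length had a wider range among the 13 copies without counts than among the 3 with counts, but a range tends to widen with more copies. The copies with counts were 195, 196 and 196 nt long. The 13 others ranged from 187 to 207 nt with a median of 194 nt, and comprised 5 copies of 194 nt, 3 of 193 nt and 1 each of 187, 191, 195, 196 and 207 nt. Copies with 0 counts therefore also occur at the lengths of the counted ones: the 196-nt copy on scaffold 24 (1744342 to 1744537, minus strand) and the 195-nt copy on scaffold 81 (461094 to 461288, minus strand). The shortest, of 187 nt, was on scaffold 346 (39160 to 39346, plus strand), and the longest, of 207 nt, on scaffold 3 (2448094 to 2448300, minus strand).

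Strand divided the copies almost as the counts did. Of 4 U2 copies on the plus strand 3 had counts, and of 12 on the minus strand 0 had. U1 showed the same division, with counts at 12 of 29 plus-strand copies and at 0 of 14 minus-strand copies. U4 had counts at 5 of 7 plus-strand and 4 of 6 minus-strand copies, and U5 at 2 of 9 and 2 of 13. For U1 and U2 together this made 15 of 33 plus-strand copies and 0 of 26 minus-strand copies, against 7 of 16 and 6 of 19 for U4 and U5. The table also holds 1103 pre-tRNA intervals and 59 microRNA intervals on the minus strand, all with counts, so minus-strand reads were counted for those classes. Those lists hold only intervals with counts on either strand. How the ends of the listed U2 copies were set is not given here. Counts are of full-length transcripts, and whether listed ends that are off on the minus strand would leave transcripts uncounted was not tested, so 0 counts do not show that these genes are silent.

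**Figure D3:**
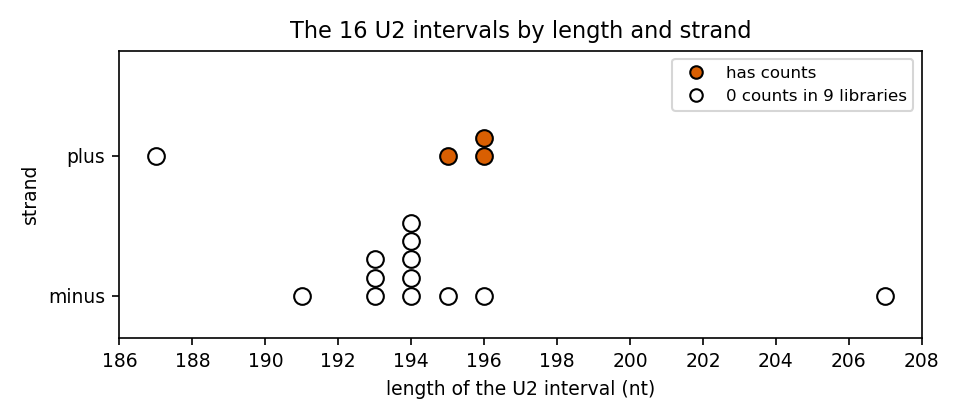
Each of the 16 U2 intervals by length in nt (horizontal axis) and strand (vertical axis), stacked where lengths are equal; filled points have counts and open points have 0 counts in 9 libraries. The filled points, at 195 and 196 nt, are all on the plus strand.

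Copies without counts often shared a scaffold with others of their kind. Scaffold 81 alone carried 6 copies, all on the minus strand and all with 0 counts. They formed pairs separated by gaps of 2178 bases (458723 to 458915 and 461094 to 461288), 2094 bases (1068198 to 1068391 and 1070486 to 1070679) and 3929 bases (1088391 to 1088584 and 1092514 to 1092707). Scaffold 287 carried 2 copies on the minus strand, 28575 bases apart (201256 to 201448 and 230024 to 230214). Beside the minus-strand copies on scaffolds 24 and 3 named above, there were a 194-nt copy on scaffold 108 (909270 to 909463) and a 193-nt copy on scaffold 23 (885566 to 885758), both on the minus strand with 0 counts.

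The counted copies had a gene of another snRNA type nearby, as did some of the copies without counts, described below. The counted copy on scaffold 23 also shared its scaffold with another U2 copy. In a window of 20000 bases, a size chosen after the positions were seen, each of the 3 counted U2 copies had a U1 or U4 copy downstream on its own strand. U1 pairs with the 5′ splice site, and U4 holds U6 inactive until the spliceosome is activated. Downstream of the scaffold 29 copy, after a gap of 4700 bases, lay the U1 copy with 1999 counts named above, and after 11392 bases another with 5 counts. Downstream of the scaffold 79 copy, after 12397 bases, lay a U1 copy (327637 to 327795) with 40 counts. Downstream of the scaffold 23 copy, after 6538 bases, lay a U4 copy (1045326 to 1045464) with 41 counts, nearly as many as the 49 of the U2 copy.

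The 20000-base windows of 2 U2 copies with 0 counts also held such a neighbour. On scaffold 23 the minus-strand U2 copy was followed after 6857 bases by a minus-strand U4 copy (878570 to 878708) with 35 counts. This pair has the same order as the plus-strand U2 and U4 pair whose U2 copy lies 152834 bases away, but only its U4 copy had counts. On scaffold 346 the 187-nt U2 copy was followed after 10456 bases by a U4 copy (49803 to 49941) with 33 counts. In both cases the U4 copy had counts and the U2 copy had 0. None of the U2 copies on scaffolds 81 and 287 had a U1, U4 or U5 neighbour in the window.

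**Figure D4:**
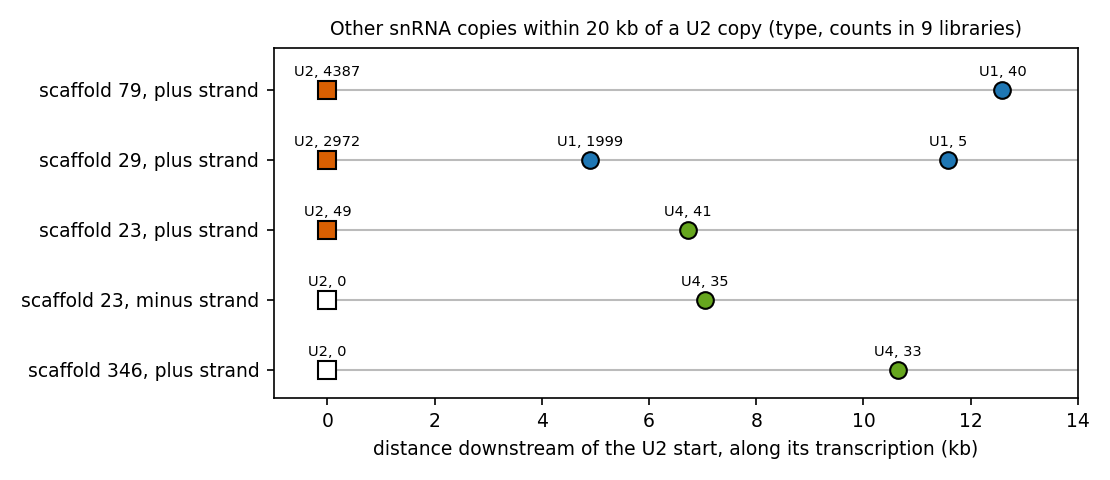
Copies of other snRNA types within 20000 bases of a U2 copy, at their distance in kb downstream of the U2 start along its direction of transcription; labels give the type and its counts over 9 libraries, and filled squares mark U2 copies with counts. All 6 neighbours are downstream on the U2 strand, and 2 of the 5 U2 copies shown have 0 counts.

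Compared with the other snRNAs, U2 counts were split over fewer copies than U4 and more evenly than U1. Counts were found at 3 of 16 U2 copies, 12 of 43 U1 copies, 9 of 13 U4 copies and 4 of 22 U5 copies. On the plus strand alone it was 3 of 4 U2, 12 of 29 U1, 5 of 7 U4 and 2 of 9 U5 copies. At least 10 counts were held by 3 U2, 9 U1, 5 U4 and 1 U5 copies. The numbers also depend on the counts per type, which were 7408 for U2, 69923 for U1 and 720 for U4. The leading copy held 59.2% of U2 counts, 93.0% of U1 counts, 43.1% of U4 counts and 90.4% of U5 counts, and the leading pair held 99.3% of U2, 95.8% of U1, 83.1% of U4 and 95.2% of U5 counts. The U5 figures rest on 83 counts in all. These are shares within each type, so the different lengths of the snRNAs do not enter.

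The ratios of U2 to U1 and to U4 overlapped between the libraries of the 2 enzymes, and the ratio to U5 was not tested. There were 12.6, 12.3 and 10.0 U2 counts per 100 U1 counts in Dcp replicates 1 to 3 and 10.0, 12.4 and 8.05 in RppH replicates 1 to 3, so the groups overlapped. The log2 of this ratio differed by −0.21 between RppH and Dcp (exact two-sided permutation p = 0.5, higher after RppH in 1 of 3 RNA samples). Per 100 U4 counts there were 1008, 1201 and 952 U2 counts after Dcp and 836, 1143 and 1033 after RppH, a log2 difference of −0.07 (exact two-sided permutation p = 0.7, higher after RppH in 1 of 3 RNA samples). With 3 against 3 libraries a p below 0.1 could not be reached. Over the 3 untreated libraries together there were 12 U2 counts and 60 U1 counts, or 20 per 100, and 0 U4 counts. Without untreated replicate 1 there were 2 and 29, or 6.90 per 100. The rise of the U1 sum, by ratios of pooled rates of 666 (95% counting interval 517 to 873) for Dcp and 803 (623 to 1052) for RppH, had intervals that overlapped those of the U2 sum. Without untreated replicate 1 the U1 ratios were 878 (611 to 1311) and 1057 (736 to 1579), below the U2 ratios given above for those libraries instead of above them, with intervals that again overlapped. The difference between U1 and U2 was not tested.

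**Figure D5:**
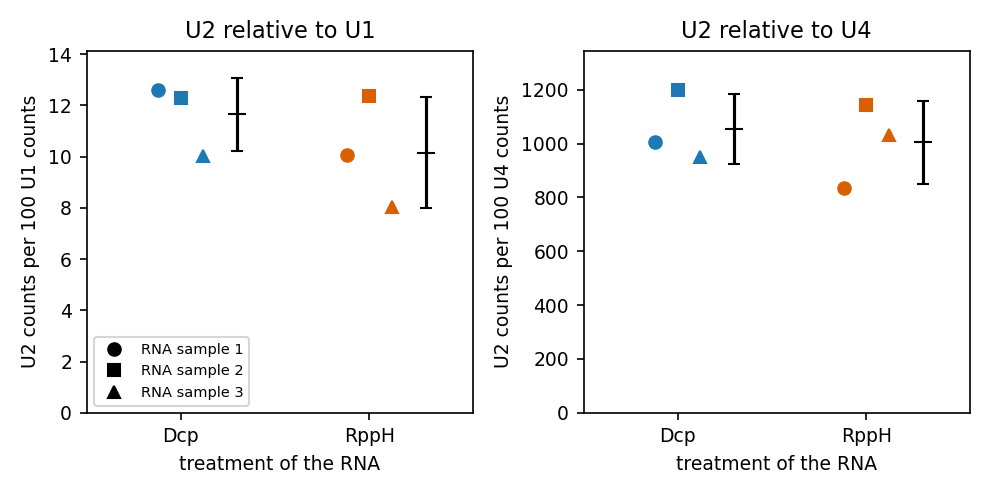
U2 counts per 100 U1 counts (left) and per 100 U4 counts (right) in Dcp and RppH libraries, on linear axes from 0; symbols mark the RNA sample and bars give the mean ± SD over 3 libraries. The treatments overlap in both panels, with means of 11.6 and 10.2 per 100 U1 counts.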

How the data were processed

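The authors deposited whole-number counts of full-length transcripts per interval and library together with their TPM. The count divided by the TPM was 1 constant per library (largest relative deviation 2.66e-15), which gave the library total. Cutadapt, Bowtie2, SAMtools and bedtools are named, with no version, in the submitters' processing notes. Scaffold names carry the prefix Ccam0.32, and coordinates are counted from 1 on those scaffolds. No sequence was used here, and the supplied gene table of another assembly was not used here.

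Counts of pre-tRNA forms were added up by tRNA gene. Of 716 loci, the 354 whose counts summed to 10 or more were tested with edgeR 4.0.16 (R 4.3.3, quasi-likelihood, all 9 libraries, library totals as offsets, Benjamini-Hochberg at 0.05). SEs and 95% intervals were back-calculated from the test statistic. Single values were compared by exact permutation tests (SciPy 1.17.1). The script was tested on simulated data. U2 copies with at least 10 counts are described singly, the others by number and range. The members and lists were chosen with earlier results of these data known. Same-numbered libraries share an RNA sample per the labels and are therefore paired. Across the 354 loci their deviations from group means on log2(TPM + 1) correlated by −0.27 to 0.20 (mean 0.06). Libraries of different treatment and different number correlated by −0.35 to 0.29 (mean −0.03), so the pairing was hardly visible in these values. The untreated libraries held only 630 to 1011 counts in all listed intervals, and their values lay near the floor. The check could hardly have shown a pairing there, so an absence of pairing is not shown. Alternatives were TMM, median of ratios, DESeq2 1.42.0, limma 3.58.1, other filters and pseudocounts, the RNA sample as a block, and leaving out libraries.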

Additional observations from a re-analysis of the deposited data

How the results depend on the processing

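The rises of the copies on scaffolds 79 and 29 over untreated RNA passed under all 19 alternatives, with log2 fold changes of 4.16 to 12.38 for Dcp and 4.03 to 12.12 for RppH, both lowest values coming from limma on log2(TPM + 1). The scaffold 23 copy passed in 15 of 18 alternatives for Dcp (not with limma, adjusted p = 0.0994) and in 16 of 18 for RppH. It could not be tested with a filter of 1 TPM in 3 libraries. These alternatives reuse the same untreated counts, and most differ from the main fit only in the libraries left out. The copies on scaffolds 29 and 23 reached the count minimum only through their treated libraries. The number of alternatives passed is therefore no independent support for a rise. For RppH against Dcp, 2 U2 copies were called (both lower) with TMM and with median of ratios, and 0 under every other alternative; the scalings differ by construction in their reference loci. With the RNA sample as a block (replicate block), the 3 copies were again called for each enzyme and 0 between them, and the U2 sum had differences of 5.24, 5.19 and −0.05 with exact sign-flip p of 0.25, 0.25 and 1, the first being the smallest that 3 pairs allow. Leaving out an RNA sample turned the sign of some uncalled differences between the enzymes, and the cause was not tested. The U2 sum ran from −0.34 to 0.10, the share of the scaffold 79 copy from −3.14 to 8.21 percentage points, and the log2 ratio of U2 to U4 from −0.17 to 0.0241. With any library or RNA sample left out, the log2 differences ran from −0.41 to 0.24 for scaffold 79, −0.32 to 0.0645 for scaffold 29 and −0.88 to 0.23 for scaffold 23. Depth limits the untreated group most, with 12 U2 counts.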
